A study of Homo sapiens with 24 samples.

Results

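The BCL2 family genes followed here are 10 human genes of the mitochondrial route to cell death: BCL2, BCL2L1, BCL2L2, MCL1, BAX, BAK1, BCL2L11, BBC3, PMAIP1 and BID. They were taken by symbol from the deposited expression table, where all 10 were found among 25541 entries, and all 10 passed the filter on low values and were tested. The cells were T47D-Y and T47D-co, derivatives of the human luminal breast cancer line T47D, which the labels call null and positive for progesterone receptor. Cultures of each line were kept for 18 hours with 20 IU per ml of interferon-alpha (IFN) or with water. R5020, a synthetic progestin, at 10 nM, or the ethanol in which it was dissolved (EtOH), then followed for 6 hours. Crossing line, IFN and R5020 gives 8 groups of 3 libraries: T47D-Y and T47D-co, each with EtOH and water, R5020 and water, EtOH and IFN, or R5020 and IFN. Serum and insulin were in the medium of every group, and both lines descend from 1 tumour line.

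Proteins of this family set whether the outer mitochondrial membrane stays intact. Survival members (BCL-2, BCL-XL, BCL-w and MCL-1, from BCL2, BCL2L1, BCL2L2 and MCL1) hold the other members in check. The effectors BAX and BAK open pores in the membrane and release cytochrome c, and the BH3-only proteins (BIM, PUMA, NOXA and BID, from BCL2L11, BBC3, PMAIP1 and BID) bind survival members or activate the effectors. In breast epithelium BCL2 is a known oestrogen-responsive gene, and BIM takes part in clearing cells from the lumen of the gland. Transcripts of BCL2L1, BCL2L11 and MCL1 are spliced into forms with different activities, which the gene-level values used here do not separate.

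Promoter sequences are shown for the 3 genes with the widest spread between groups, since these carry most of the results that follow. Each is the stretch of 250 bases just before a RefSeq start site on GRCh38.p14, written 5′ to 3′ on the gene's own strand. Motifs were searched on both strands and are in capitals where found: GTAAACA (a forkhead box), TGTTCT (a steroid receptor half-site), a full steroid receptor site (AGAACA and TGTTCT, with 3 bases between them, which overlaps the half-site), an interferon response core (GAAA and GAAA, with 2 bases between them) and GGGCGG (a GC box).
BCL2L11, chr2:111120664-111120913 (plus strand): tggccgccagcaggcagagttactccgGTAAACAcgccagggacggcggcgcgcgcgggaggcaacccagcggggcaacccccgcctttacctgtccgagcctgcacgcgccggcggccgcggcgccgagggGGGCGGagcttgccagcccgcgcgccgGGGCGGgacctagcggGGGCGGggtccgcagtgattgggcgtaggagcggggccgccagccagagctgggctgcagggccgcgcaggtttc
BCL2, chr18:63319770-63320019 (minus strand): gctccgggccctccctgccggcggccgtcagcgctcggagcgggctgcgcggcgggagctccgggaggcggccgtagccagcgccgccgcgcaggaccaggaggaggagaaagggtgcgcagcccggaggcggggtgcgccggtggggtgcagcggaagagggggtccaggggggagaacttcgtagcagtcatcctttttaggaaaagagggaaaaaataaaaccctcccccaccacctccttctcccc
BCL2L1 start site A, chr20:31722869-31723118 (minus strand): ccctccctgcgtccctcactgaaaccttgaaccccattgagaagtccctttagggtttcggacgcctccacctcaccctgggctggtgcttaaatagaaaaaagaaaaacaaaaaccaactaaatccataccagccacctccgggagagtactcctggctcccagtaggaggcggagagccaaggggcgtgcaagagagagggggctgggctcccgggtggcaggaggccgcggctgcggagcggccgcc
BCL2L1 start site B, chr20:31723964-31724213 (minus strand): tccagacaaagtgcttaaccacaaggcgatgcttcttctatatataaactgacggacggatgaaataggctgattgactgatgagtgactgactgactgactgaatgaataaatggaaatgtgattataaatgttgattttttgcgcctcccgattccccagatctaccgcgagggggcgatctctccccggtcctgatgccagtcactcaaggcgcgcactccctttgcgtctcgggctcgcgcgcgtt

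The BCL2L11 stretch held 1 GTAAACA, beginning 223 bases before the start site, and 3 GGGCGG. Of 35116 promoter stretches of the same length, 2.98% held GTAAACA and 42.6% held GGGCGG. The BCL2 stretch and both BCL2L1 stretches held none of the motifs. The steroid half-site was in 12.4%, the interferon core in 3.02% and the full steroid site in 0.00285% of all stretches. BCL2L11 was the most GC-rich of the 4 stretches at 76.8%, against 70% for BCL2, 60.4% and 50% for the 2 BCL2L1 start sites, and a median of 58% over all promoters. Of the 10 members, 8 matched the promoter table, with 13 start sites, and the half-site, the full steroid site and the interferon core were in 0 of these 13 stretches. These are matches of letters and not measured binding sites.

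Depth ranged from 14141279 to 33607420 estimated fragments per library. Levels are scaled fragments, that is, the estimated fragments of a gene after all 24 libraries were brought to 1 scale, given as mean ± SD over n = 3 libraries. They are not divided by gene length, so levels are compared between groups and not between genes. Differences are log2 fold changes on the log2(scaled fragments + 1) scale ± SE, with Benjamini-Hochberg adjusted p from limma over 20162 tested entries, called under 0.05. The labels call the 3 libraries of a group biological replicates, and no source says how they were cultured. The p-values therefore set each difference between groups against the spread between these samples, pooled over the 8 groups. PGR, the progesterone receptor gene, averaged 26479.9 ± 1399.6 scaled fragments in untreated T47D-co and 693 ± 37.6 in untreated T47D-Y, so its transcript was low but not absent in the line labelled null. FKBP5, a progestin target, rose with R5020 and water by 3.38 ± 0.043 in T47D-co and by 0.79 ± 0.043 in T47D-Y (limma adjusted p = 7.7e-27 and 1.02e-11). ISG15, an interferon target, rose with IFN and EtOH in both lines, by 2.97 ± 0.15 (T47D-co) and 5.41 ± 0.15 (T47D-Y) (limma adjusted p = 4.55e-13 and 6.14e-19). Luminal epithelial markers were all found (8 of 8, summing to 64432 to 115378 scaled fragments per library). Of other cell types, 4 leukocyte markers summed to 9.35 to 77.3, and 3 of these had no library at 10, 2 endothelial markers summed to 1.10 to 19.6, and COL1A1 was the only fibroblast marker found, at 154 to 473. In 4 libraries the mitochondrial share of fragments was 0.942 to 1.07%, against 3.17 to 4.74% in the other 20. They are replicate 1 of T47D-Y with EtOH and water, replicates 1 and 2 of T47D-Y with R5020 and water, and replicate 2 of T47D-co with EtOH and water, and calls lost without them are named beside each result.

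**Figure D1:**
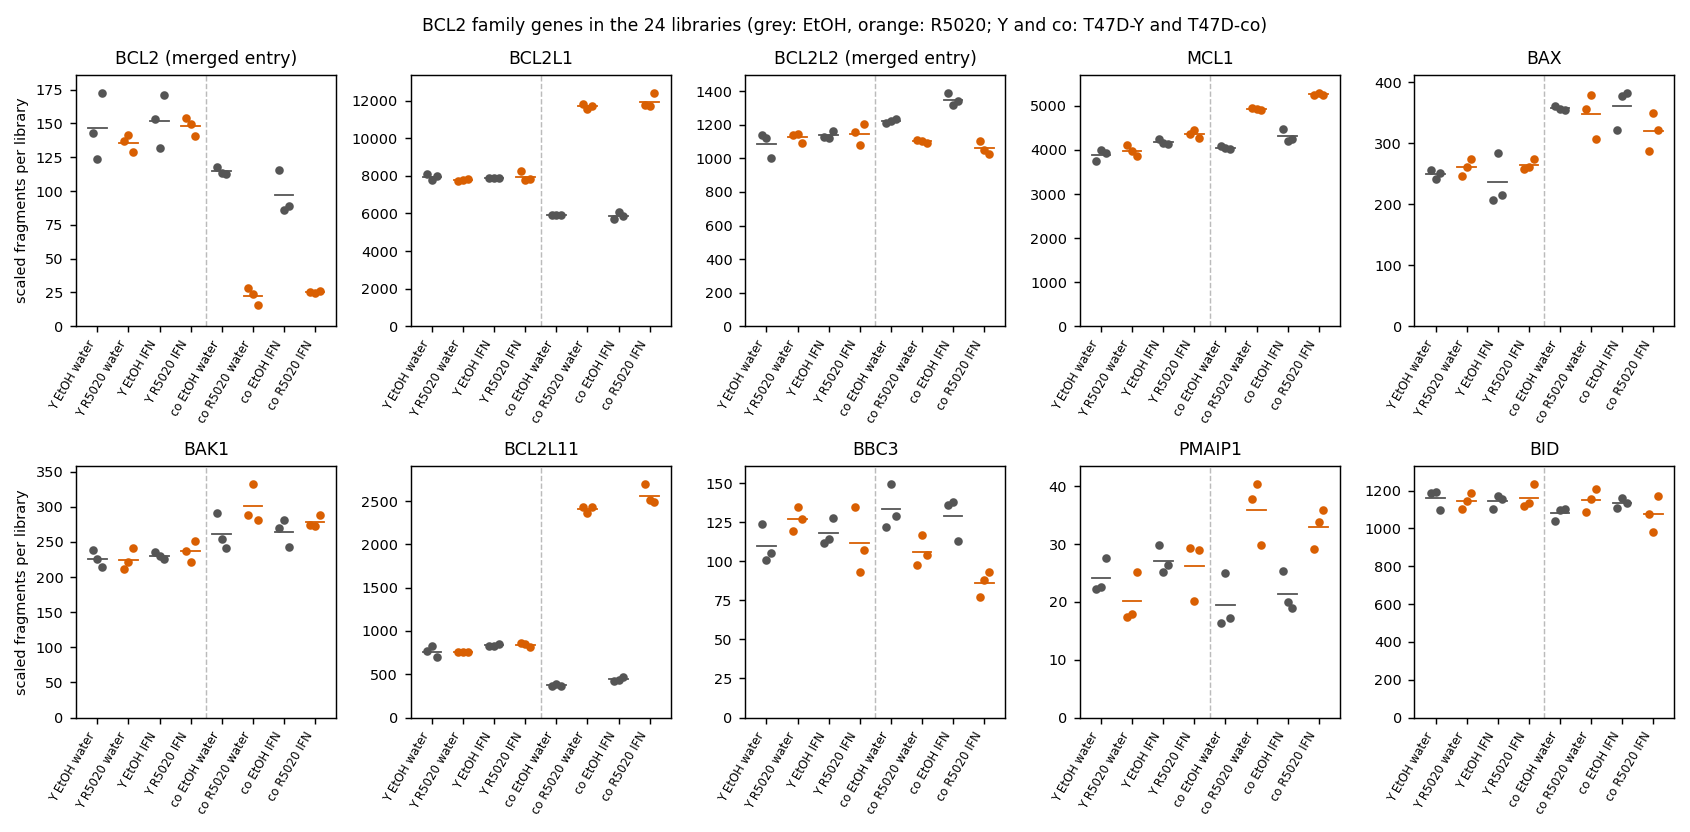
Scaled fragments (linear axes from 0) of the 10 genes in the 24 libraries; each point is 1 library, the short line is the group mean, grey is EtOH, orange is R5020, and the dashed line separates T47D-Y from T47D-co. In T47D-co given R5020, BCL2L11 and BCL2L1 stand above and BCL2 below all other groups.

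R5020 changed most of the family in T47D-co, and its largest movements went in opposite directions. With water, 5 of the 10 genes rose (BCL2L11, BCL2L1, PMAIP1, MCL1 and BAK1) and 3 fell (BCL2, BBC3 and BCL2L2). Of all 20162 entries tested, 56.5% were called in that comparison, 26.6% higher and 30% lower, so 8 of 10 stands beside a background in which most of the transcriptome was called. By size, 250 entries rose more than BCL2L11 and 235 fell more than BCL2, while 7.09% of all entries were called at least 2-fold higher and 8.07% at least 2-fold lower. The median change of the 10 genes was 0.14, against -0.036 over all entries. In bulk RNA, fewer cells of a kind and less RNA per cell cannot be told apart. Luminal markers moved with R5020 in T47D-co as well. Of 8, 0 were higher and 6 lower with water, among them FOXA1 by -1.60 ± 0.042 and GATA3 by -0.82 ± 0.032 (limma adjusted p = 6.63e-21 and 1.61e-17), and their part in the family's changes was not tested.

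BCL2 encodes the founding survival protein of the family. Its entry spans chr18:60790578-60987361 on GRCh37, the build of all gene positions given here, and is merged with RP11-28F1.2 and snoU13, so its fragments cannot be split between them. In T47D-co with water it measured 117, 113 and 113 scaled fragments under EtOH and 28.5, 23.5 and 15.6 under R5020. With IFN it measured 116, 86.3 and 88.9 under EtOH and 25.2, 24.5 and 26.4 under R5020. Every R5020 library of T47D-co lay below every EtOH library of that line. The fall was 5.05-fold with water, a log2 change of -2.34 ± 0.16 (limma adjusted p = 4.05e-12), and -1.88 ± 0.16 with IFN (limma adjusted p = 2.67e-10). In the R5020 libraries of T47D-co the entry rested on 12 to 31 estimated fragments, which limits the precision of the low level. In T47D-Y with water, BCL2 measured 143, 124 and 172 under EtOH and 137, 141 and 129 under R5020, and these overlap. Ordered by level, the 4 T47D-Y groups came first (136 to 152 as group means), with libraries of neighbours overlapping. Then came T47D-co with EtOH and water (115) and with EtOH and IFN (97.001), overlapping each other, and last its R5020 groups (25.4 with IFN and 22.5 with water), which also overlapped.

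BCL2L1, which encodes the survival protein BCL-XL and the shorter BCL-XS, moved the other way. It lies at chr20:30252254-30311792, where 2 further entries share the locus. In T47D-co with water it measured 5914, 5907 and 5942 scaled fragments under EtOH and 11815, 11569 and 11702 under R5020. With IFN it measured 5703, 6077 and 5883 under EtOH and 11770.1, 11700.5 and 12401 under R5020. EtOH and R5020 libraries did not overlap, and the spread within each group was small beside the difference. The rise was 1.97-fold with water (log2 0.98 ± 0.028, limma adjusted p = 3.33e-20) and 2.03-fold with IFN (1.02 ± 0.028, limma adjusted p = 1.31e-20). All 12 T47D-Y libraries lay between these levels, at 7735 to 8245.

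MCL1, which encodes a short-lived survival protein, rose by less. Its entry at chr1:150547031-150552066 measured 4094, 4039 and 4012 under EtOH and 4954, 4926 and 4915 under R5020 in T47D-co with water. The groups did not overlap, and the rise was 0.28 ± 0.030 (limma adjusted p = 7.37e-09). With IFN the values were 4479, 4213 and 4249 under EtOH and 5244, 5288 and 5255 under R5020, again without overlap, a rise of 0.29 ± 0.030 (limma adjusted p = 6.26e-09). In the order of group means the R5020 groups of T47D-co were first, with IFN (5262) above water (4932), and T47D-Y with EtOH and water was last (3891).

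The entry holding BCL2L2, which encodes BCL-w, is merged with BCL2L2-PABPN1 and PABPN1 at chr14:23743249-23795394, and 3 further entries lie at the locus. PABPN1 encodes a nuclear poly(A)-binding protein, so a change in this entry is not assigned to BCL-w. In T47D-co with water the entry measured 1210.1, 1220.4 and 1238 under EtOH and 1107, 1106 and 1093 under R5020, a change of -0.15 ± 0.046 (limma adjusted p = 0.00695). With IFN it measured 1389, 1318 and 1344 under EtOH and 1105, 1051 and 1028 under R5020, a change of -0.35 ± 0.046 (limma adjusted p = 3.67e-07). Neither pair of groups overlapped. Of the entries holding survival genes, 2 thus rose and 2, both merged with other genes, fell in T47D-co.

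The effectors moved little. BAX, at chr19:49458071-49465055, measured 361, 356 and 355 under EtOH and 356, 379 and 307 under R5020 in T47D-co with water. Its change was -0.047 with a 95% interval of -0.25 to 0.16, and with IFN -0.18 (-0.38 to 0.029), and neither was called. BAK1, at chr6:33540328-33548019, measured 291, 254 and 241 under EtOH and 289, 332 and 281 under R5020 with water. Its rise of 0.20 ± 0.083 was called (limma adjusted p = 0.0435) although the groups overlapped. The call was lost without EtOH replicate 2 (0.18), a library of low mitochondrial share, EtOH replicate 3 (0.14) or R5020 replicate 2 (0.13), and when only these 2 groups were fitted (limma adjusted p = 0.0731). With IFN, BAK1 changed by 0.076 ± 0.083 and was not called.

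BCL2L11, which encodes the BH3-only protein BIM, showed the largest change of the family. It lies at chr2:111876954-111926024, and no other entry shares the locus. In T47D-co with water it measured 369.5, 391 and 369 scaled fragments under EtOH and 2426, 2368 and 2433 under R5020. With IFN it measured 419, 439 and 464 under EtOH and 2692, 2515 and 2485 under R5020. Every R5020 library of T47D-co exceeded every other library of the series, and every EtOH library of T47D-co lay below every T47D-Y library. The rise was 6.39-fold with water (log2 2.68 ± 0.049, limma adjusted p = 4.34e-24) and 5.81-fold with IFN (2.54 ± 0.049, limma adjusted p = 1.18e-23). The 12 T47D-Y libraries stayed within 699.98 to 861. In the order of group means, libraries of neighbouring groups overlapped only between the 2 T47D-Y groups given IFN and between the 2 given water.

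PMAIP1 encodes NOXA, a BH3-only protein that binds MCL-1, and its entry rested on 15 to 48 estimated fragments per library. At chr18:57567179-57571538, it measured 16.4, 24.98 and 17.3 under EtOH and 37.7, 40.3 and 29.9 under R5020 in T47D-co with water. The rise was 0.86 ± 0.23 (limma adjusted p = 0.00204), and the groups did not overlap. With IFN it measured 25.4, 19.98 and 18.97 under EtOH and 29.2, 33.7 and 35.9 under R5020, also without overlap, a rise of 0.60 ± 0.23 (limma adjusted p = 0.025). That call was lost when EtOH replicate 2 (0.56), EtOH replicate 3 (0.52), R5020 replicate 2 (0.58) or R5020 replicate 3 (0.54) was left out. The 95% intervals were wide, 0.40 to 1.33 with water and 0.14 to 1.07 with IFN.

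BBC3, which encodes the p53-induced BH3-only protein PUMA, fell. At chr19:47724080-47736023 it measured 122, 149 and 129 under EtOH and 97.6, 117 and 104 under R5020 in T47D-co with water, a change of -0.33 ± 0.13 (limma adjusted p = 0.0352). The groups did not overlap, but the call was lost without EtOH replicate 2 (-0.25), the library of low mitochondrial share, EtOH replicate 3 (-0.35), R5020 replicate 1 (-0.27) or R5020 replicate 3 (-0.32). With IFN it measured 136, 138 and 113 under EtOH and 76.9, 87.9 and 92.9 under R5020, a change of -0.58 ± 0.13 (limma adjusted p = 0.000461). That call held in all 6 fits with 1 library left out (-0.67 to -0.50). BID, whose protein links death receptors to mitochondria, lies at chr22:18216905-18257536. It measured 1039, 1097 and 1105 under EtOH and 1086, 1155 and 1209 under R5020 with water, with overlap. Its change was 0.089 (-0.025 to 0.20) with water and -0.075 (-0.19 to 0.038) with IFN, and neither was called. The BH3-only genes thus split into 2 that rose, 1 that fell and 1 without a call.

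With IFN present, 4 of the 10 genes rose with R5020 in T47D-co (BCL2L11, BCL2L1, PMAIP1 and MCL1) and 3 fell (BCL2, BBC3 and BCL2L2), beside 58.2% of all entries called, 27.5% higher and 30.6% lower. The difference between the R5020 responses with IFN and with water was tested as an interaction, which limma called for 0 of 10 genes and 1.01% of all entries. At an unadjusted p under 0.05, 2 genes passed: the BCL2L2 entry (-0.20 ± 0.065, limma adjusted p = 0.132) and BID (-0.16 ± 0.078, limma adjusted p = 0.31). The interaction was 0.45 for BCL2, with an interval of -0.026 to 0.93, and -0.14 for BCL2L11, with -0.28 to 0.0077. Interactions as large as the ends of these intervals remain compatible with the data.

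**Figure D2:**
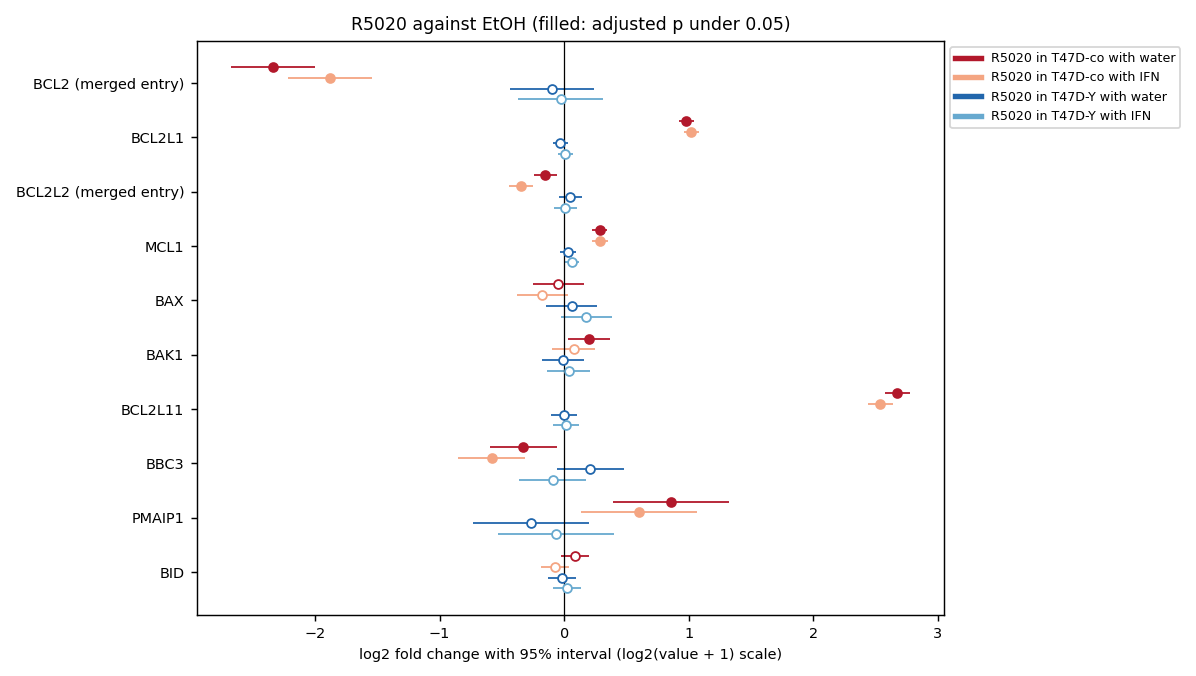
Log2 fold changes of R5020 against EtOH (points) with 95% intervals (lines) for the 10 genes in the 2 lines, with water or IFN; filled points have an adjusted p under 0.05. Points of T47D-co reach 2.68 for BCL2L11 and -2.34 for BCL2, while all points of T47D-Y are open.

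In T47D-Y, limma called 0 of 10 genes with R5020, both with water (0.218% of all entries called) and with IFN (0.298%). At an unadjusted p under 0.05, 0 genes passed with water and 1 with IFN, MCL1 at 0.062 ± 0.030 (limma adjusted p = 0.824). Intervals were narrow for the abundant genes. BCL2L11 measured 764, 822 and 699.98 under EtOH and 759, 759 and 761 under R5020 with water, and the interval of its change was -0.10 to 0.10. For BCL2L1 the interval was -0.088 to 0.028. They were wider for BCL2 (-0.43 to 0.24) and PMAIP1 (-0.73 to 0.20), which rest on fewer fragments.

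The response to R5020 differed between the lines for 7 of 10 genes in a test of the line by R5020 interaction with water, where 44.6% of all entries were called, 21.6% higher and 23% lower. The change in T47D-co exceeded that in T47D-Y by 2.68 ± 0.070 for BCL2L11, 1.01 ± 0.040 for BCL2L1, 0.25 ± 0.042 for MCL1 and 1.12 ± 0.32 for PMAIP1 (limma adjusted p = 1.91e-20, 6.63e-17, 1.86e-05 and 0.00534). It was more negative in T47D-co for BCL2 (-2.24 ± 0.23), BBC3 (-0.54 ± 0.18) and the BCL2L2 entry (-0.20 ± 0.065), with limma adjusted p = 1.13e-08, 0.0196 and 0.0131. Without the 4 libraries of low mitochondrial share 4 calls stayed, those of BCL2L11, BCL2L1, MCL1 and BCL2, in a fit where the 1 remaining T47D-Y library with R5020 and water is assumed to vary like the other groups. The values for PMAIP1, BBC3 and BCL2L2 were then 1.03, -0.55 and -0.19 and no longer called.

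Before R5020, the lines themselves differed. In untreated T47D-co against untreated T47D-Y, 3 of 10 genes were higher (BAX, BAK1 and the BCL2L2 entry) and 2 lower (BCL2L11 and BCL2L1), beside 63.1% of all entries called, 29.7% higher and 33.5% lower. BCL2L11 averaged 376 ± 12.7 in T47D-co and 762 ± 60.9 in T47D-Y, a difference of -1.01 ± 0.049 (limma adjusted p = 1.84e-15). BCL2L1 averaged 5921 ± 18.5 against 7948 ± 175, a difference of -0.42 ± 0.028 (limma adjusted p = 8.99e-13). BAX measured 361, 356 and 355 in T47D-co and 256, 241 and 251 in T47D-Y without overlap, a difference of 0.52 ± 0.10 (limma adjusted p = 6.29e-05). The BAK1 difference of 0.21 ± 0.083 (limma adjusted p = 0.0318) was lost without T47D-Y replicate 2 (0.21), T47D-Y replicate 3 (0.17) or T47D-co replicate 1 (0.13), and was -0.026 on the deposited scale. The BCL2L2 entry differed by 0.17 ± 0.046 (limma adjusted p = 0.00213), and by 0.083 without a call when all entries at its locus were summed, and was -0.063 on the deposited scale. BCL2 differed by -0.34 ± 0.16 and BBC3 by 0.28 ± 0.13 (limma adjusted p = 0.0773 and 0.0671), and neither was called. R5020 thus took BCL2L11 and BCL2L1 in T47D-co from below the T47D-Y levels to above them.

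Scaling cancels within a library, so ratios of fragments between members need no normalisation between libraries. They depend on gene lengths, and only their differences between groups are read. In T47D-co with water the ratio of BCL2L11 to BCL2L1 fragments was 0.0625, 0.0662 and 0.0620 under EtOH and 0.205, 0.205 and 0.208 under R5020. With IFN its means were 0.0748 ± 0.00350 and 0.215 ± 0.0142, and in T47D-Y 0.0959 to 0.106. The transcript of the BH3-only gene thus gained on that of BCL2L1 although both rose. BCL2L11 to MCL1 went from 0.0930 ± 0.00342 to 0.488 ± 0.00725 in T47D-co with water, with T47D-Y means of 0.191 to 0.199. BCL2L11 to BCL2 was 3.15, 3.45 and 3.27 under EtOH and 85.03, 101 and 156 under R5020 in T47D-co with water, with T47D-Y means of 5.35 to 5.69. Among the survival genes, BCL2L1 to BCL2 went from 51.7 ± 1.17 to 552 ± 176 in T47D-co with water. BCL2L1 to MCL1 went from 1.46 ± 0.0182 to 2.37 ± 0.0198, from below to above the T47D-Y means of 1.82 to 2.05. In these 5 ratios EtOH and R5020 libraries of T47D-co did not overlap, with water or with IFN. BAX to BAK1, the effector pair, gave 1.24, 1.40 and 1.47 under EtOH and 1.23, 1.14 and 1.09 under R5020 in T47D-co with water, and with IFN its groups overlapped. PMAIP1 to MCL1 gave 0.00400, 0.00618 and 0.00431 under EtOH and 0.00762, 0.00818 and 0.00608 under R5020 in T47D-co with water, with overlap. With IFN it gave 0.00566, 0.00474 and 0.00446 under EtOH and 0.00556, 0.00638 and 0.00683 under R5020, also with overlap. An exact permutation test of 3 against 3 libraries cannot give a two-sided p below 0.1, so the ratios are given as values.

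**Figure D3:**
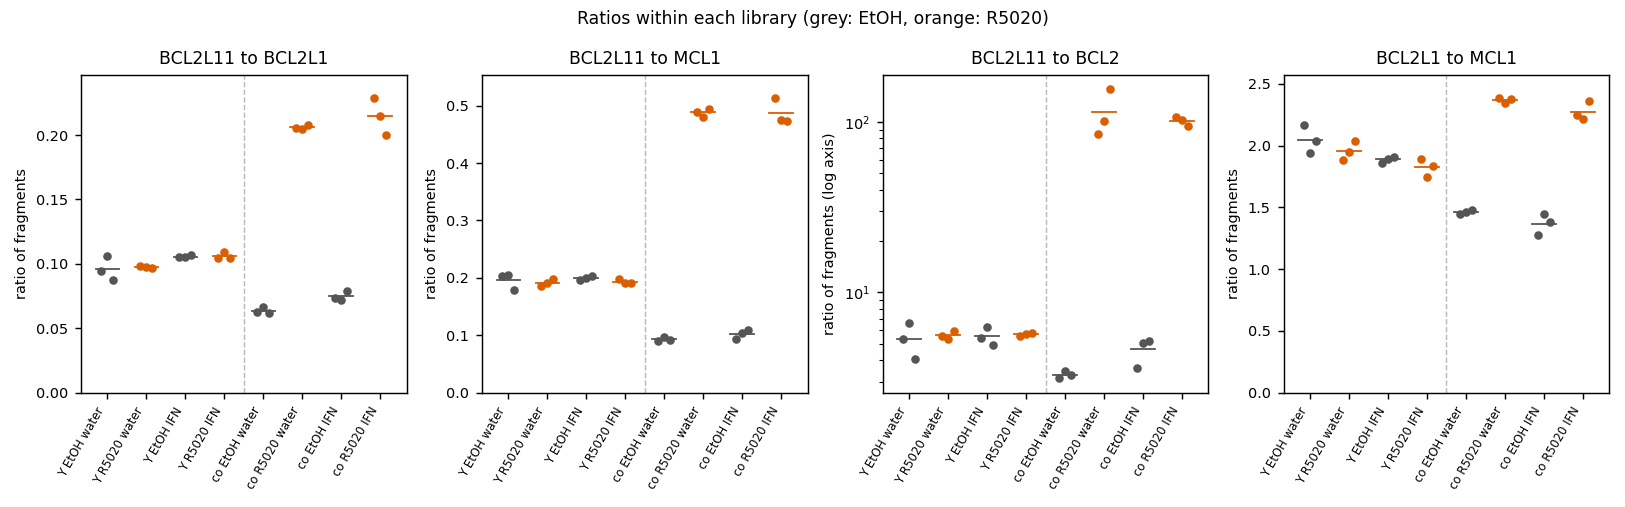
Ratios of estimated fragments between pairs of members in each library (points, with group means as lines; the BCL2L11 to BCL2 panel has a log axis, the others start at 0). R5020 libraries of T47D-co (orange) stand apart from their EtOH libraries (grey) where BCL2L11 is set against BCL2L1 or BCL2, and the 4 T47D-Y groups stay close together.

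IFN changed few members, and no called change was above 0.23 on the log2 scale. In T47D-co with EtOH, 1 of 10 genes was called, BCL2L11, higher by 0.23 ± 0.049 (limma adjusted p = 0.0179), beside 1% of all entries, 0.57% higher. Its water and IFN libraries did not overlap. The call was lost without water replicate 1 (0.21), water replicate 3 (0.21) or IFN replicate 3 (0.19), without the library of low mitochondrial share (0.25, in a fit without all 4 such libraries), and when only these 2 groups were fitted (limma adjusted p = 0.241). BCL2L11 changed by 0.089 ± 0.049 in T47D-co with R5020 (limma adjusted p = 0.262). In T47D-Y it changed by 0.13 ± 0.049 with EtOH and 0.15 ± 0.049 with R5020 (limma adjusted p = 0.138 and 0.0923). None of these changes was called.

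MCL1 was the only member called in the other 3 IFN comparisons. It was higher by 0.094 ± 0.030 in T47D-co with R5020 (limma adjusted p = 0.0424, beside 11.3% of entries called, 7.57% higher). It was higher by 0.10 ± 0.030 in T47D-Y with EtOH (limma adjusted p = 0.0433, beside 4.44%, 2.5% higher) and by 0.13 ± 0.030 in T47D-Y with R5020 (limma adjusted p = 0.00689, beside 4.77%, 3.07% higher). In T47D-Y with R5020 it measured 4101, 3979 and 3853 with water and 4364, 4462 and 4269.97 with IFN, and in T47D-Y with EtOH 3747, 4006 and 3920.1 with water and 4237, 4164 and 4144 with IFN. Neither pair overlapped. In T47D-co with EtOH its change of 0.091 ± 0.030 was not called. Leaving out 1 library ended the MCL1 call in 6 of 6 fits for T47D-co with R5020 (0.090 to 0.10), as did TMM scaling (limma adjusted p = 0.0564) and a fit of only those groups (0.0571 by the same test). In T47D-Y with EtOH it ended in 5 of 6 fits (0.077 to 0.13), all but the one without water replicate 2, and also without the libraries of low mitochondrial share (0.077) and with only those groups fitted (limma adjusted p = 0.124). In T47D-Y with R5020 it ended in 2 of 6, without water replicate 3 (0.11) or IFN replicate 2 (0.12).

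**Figure D4:**
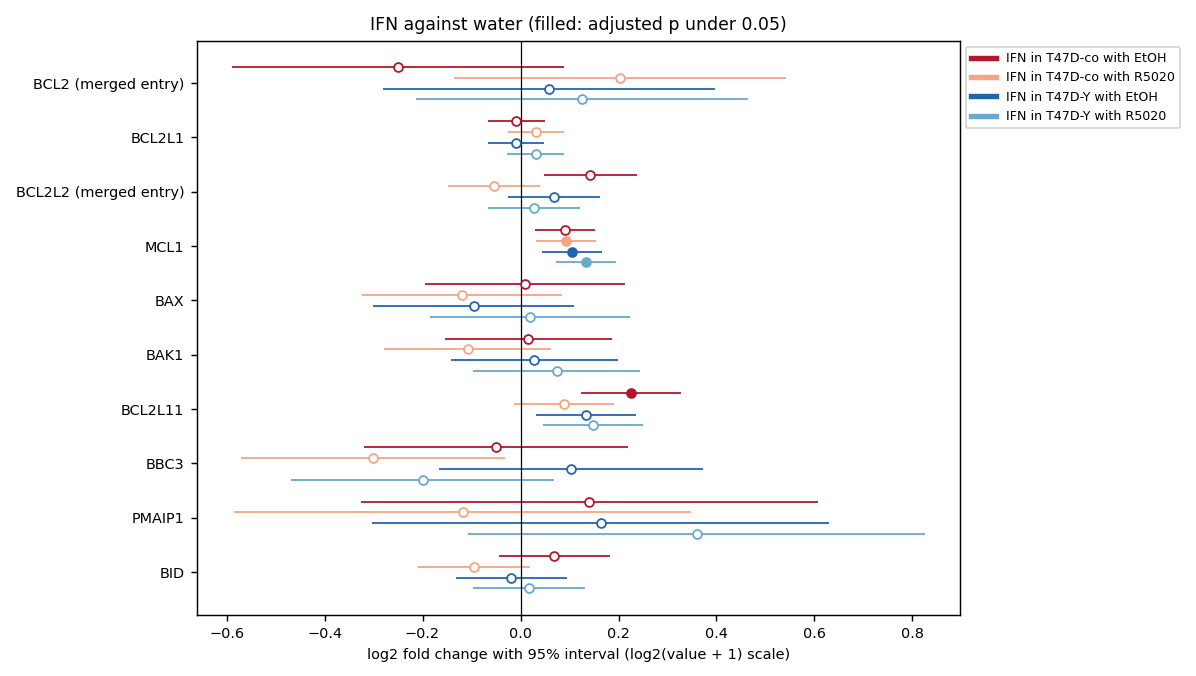
Log2 fold changes of IFN against water (points) with 95% intervals (lines) for the 10 genes in the 2 lines, with EtOH or R5020; filled points have an adjusted p under 0.05. Points lie between -0.30 and 0.36, and the filled ones are 3 for MCL1 and 1 for BCL2L11.

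These IFN values depend on the common scale. The deposited factors were set separately within each line and IFN state, and on that scale the median entry shifts with IFN by -0.18 and -0.188 in T47D-co (EtOH and R5020) and -0.477 and -0.483 in T47D-Y. There, 3 and 7 of the 10 members were called in T47D-co, beside 41.7% and 35.6% of all entries, and 9 and 8 in T47D-Y, beside 72.9% and 73.2%, and each called member was lower. Within each line and IFN state the deposited factors had a geometric mean of 0.996 to 0.999. Differences in depth between these sets of libraries therefore stay in the deposited scale. Whether IFN changed the amount of RNA per cell was not tested, and the values here are relative to the median gene. The line by IFN interaction with EtOH was called by limma for 0 of 10 genes (0.377% of all entries), and 0 passed at an unadjusted p under 0.05. Its intervals were -0.052 to 0.24 for BCL2L11 and -0.68 to 0.64 for PMAIP1. IFN and R5020 comparisons within a line share control libraries.

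Related genes were followed as lists, each beside 56.5% of all entries called with R5020 in T47D-co with water, with a median change of -0.036, and beside 58.2% (27.5% higher, 30.6% lower) where IFN was present. Of 13 other genes with BCL2 homology, 10 were tested, and 6 rose and 0 fell, with a median of 0.32. BNIP3 and BNIP3L, whose proteins take part in removing mitochondria, rose by 1.16 ± 0.066 and 0.80 ± 0.054. BMF, a BH3-only gene, rose by 0.62 ± 0.049, and BCL2L13 by 0.42 ± 0.042. BNIP3 averaged 941 under EtOH and 2103 under R5020. BMF, like BCL2L11, was lower in untreated T47D-co, with 577 there and 1209 in untreated T47D-Y, but with R5020 it reached 884. With IFN present 5 of the 10 rose and 1 fell.

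Downstream of the mitochondrial pore, all 19 genes of a list of caspases, their activators and inhibitors, and channel genes were tested, and 10 rose and 4 fell with R5020 in T47D-co with water (median 0.15). CASP9, the initiator activated by cytochrome c release, averaged 217 ± 14.4 under EtOH and 92.6 ± 7.41 under R5020, a change of -1.22 ± 0.12 (limma adjusted p = 1.9e-09). VDAC1, a channel of the outer membrane, rose by 0.88 ± 0.038 and CASP6 by 0.60 ± 0.062. With IFN present 12 rose and 4 fell.

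Among 17 transcription factors known to act on BCL2 family genes, all tested, 10 rose and 5 fell with R5020 in T47D-co with water (median 0.45). STAT5A, which can activate BCL2L1, measured 8.66, 4.996 and 5.76 under EtOH and 117, 87.3 and 87.1 under R5020, a rise of 3.73 ± 0.20 (limma adjusted p = 1.37e-14). FOXO1, a forkhead factor known to act on BCL2L11, measured 249, 297 and 281 under EtOH and 2189, 2244 and 2268 under R5020, a rise of 3.02 ± 0.074 (limma adjusted p = 1.31e-21). Neither pair overlapped. MYC rose by 2.17 ± 0.17 and E2F1 by 1.35 ± 0.047. In untreated cells 6 of the 17 were higher in T47D-co than in T47D-Y and 9 lower. Of all entries, 63.1% were called there, 29.7% higher and 33.5% lower. STAT5A and MYC were lower in T47D-co, by -3.98 ± 0.20 and -2.01 ± 0.17. Higher averages in T47D-co included ESR1, with 18777 ± 682 there and 4307 ± 113 in T47D-Y, and JUN, with 1229 ± 24.5 and 391 ± 3.96. Each T47D-co library with EtOH and water held under 10 scaled fragments of STAT5A. The sizes of the STAT5A rise and of its difference between the lines are therefore uncertain. With IFN present 9 of the 17 rose with R5020 in T47D-co and 6 fell.

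All 20 genes of the p53 target list were tested, and 9 rose and 5 fell with R5020 in T47D-co with water (median 0.077). AEN, an apoptosis-enhancing nuclease, rose by 2.06 ± 0.076, GADD45A by 1.67 ± 0.17 and TNFRSF10B, a death receptor for TRAIL, by 1.21 ± 0.036, while DDB2, a DNA repair gene, fell (-0.75 ± 0.045). With IFN present 9 rose and 6 fell. Of 6 genes for turnover of the MCL-1 protein, 1 rose and 4 fell with R5020 in T47D-co with water, and likewise with IFN. FBXW7, a ubiquitin ligase subunit, rose by 0.27 ± 0.043, and TRIM17, the deubiquitinase gene USP9X and the kinase gene GSK3B changed by -0.46 ± 0.082, -0.25 ± 0.028 and -0.19 ± 0.031. In T47D-Y, limma called 0 genes of these 5 lists with R5020, with water (0.218% of all entries called) or with IFN (0.298%).

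**Figure D5:**
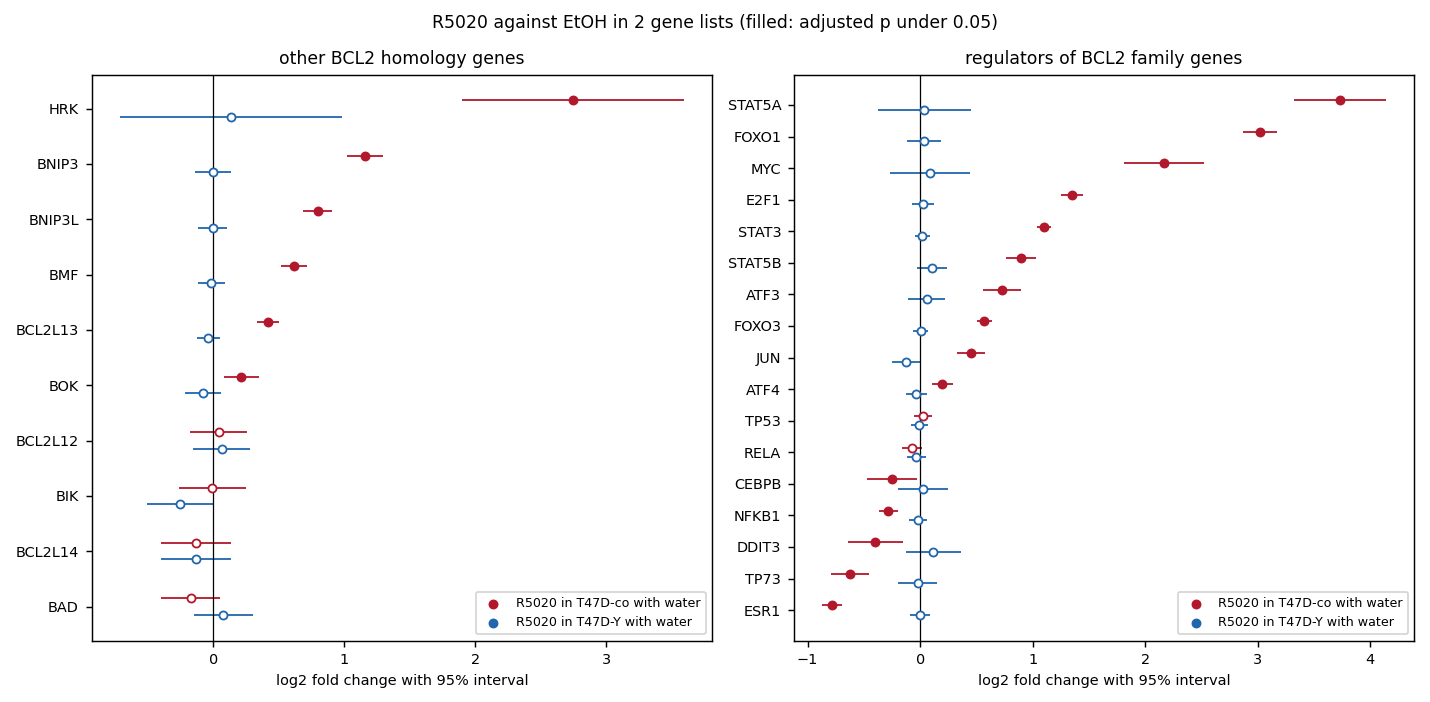
Log2 fold changes of R5020 against EtOH, with water (points), and 95% intervals (lines) for 10 other genes with BCL2 homology and 17 regulators in the 2 lines; filled points have an adjusted p under 0.05. All points of T47D-Y are open, and those of T47D-co reach 3.73 for STAT5A and 3.02 for FOXO1.

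With IFN in T47D-co with EtOH, limma called 0 genes of these 5 lists, beside 1% of all entries. With IFN in T47D-co with R5020 it called more, beside 11.3% of all entries (7.57% higher). There 3 of 19 caspase and channel genes were higher and 1 lower, and 4 of 17 regulators were higher and 2 lower. Of 20 p53 targets 2 were lower, of 6 MCL-1 turnover genes 2 were higher, and of 10 homology genes 0 were called. The calls that follow are also for IFN against water. In T47D-Y with EtOH, where 4.44% of all entries were called and 2.5% were higher, BMF fell (-0.28 ± 0.049), 1 of 10 homology genes. In the caspase and channel list BIRC2 was among the higher genes (0.17 ± 0.050), and 1 was lower, BAG1 (-0.29 ± 0.050). Of the regulators 2 were higher, FOXO3 (0.15 ± 0.034) and STAT3 (0.14 ± 0.031), and of the p53 targets 1 was higher, TNFRSF10B (0.17 ± 0.036), and 1 lower, CCNG1 (-0.21 ± 0.050). In T47D-Y with R5020, 4.77% of all entries were called and 3.07% were higher. There 4 of 17 regulators were higher and 0 lower. Of the homology genes BCL2L14 was higher (0.47 ± 0.13) and BMF lower (-0.24 ± 0.049). Of the caspase and channel genes 2 were higher and 1 lower, and of the p53 targets 1 was higher and 1 lower.

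The members with the widest range of the 8 group means were BCL2L11 (2.76 on the log2 scale) and BCL2 (2.73), followed by BCL2L1 (1.02). The entries whose group means followed BCL2L11 most closely, by Pearson correlation over the 8 means, were ZNF57 (r = 0.9989), TEX2 (0.9987) and DEGS1 (0.9976). For BCL2 they were C11orf54 (0.9987), TDRD5 (0.9979) and TAOK3 (0.9968). The points come from the same 24 libraries, the entries were picked for this likeness, and the correlations are descriptions without a test. With R5020 in T47D-co with water ZNF57 rose by 2.21 ± 0.11, TEX2 by 1.41 ± 0.040 and DEGS1 by 1.58 ± 0.062, against 2.68 for BCL2L11. C11orf54, TDRD5 and TAOK3 changed by -0.80 ± 0.050, -1.72 ± 0.068 and -1.89 ± 0.057, against -2.34 for BCL2.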

How the data were processed

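Total RNA of 24 libraries was sequenced on an Illumina MiSeq, per the labels' protocols. TopHat2 2.0.12 and Cufflinks 2.2.1 and the build GRCh37 (hg19) are named, without roles, in the submitters' processing notes, and the annotation is not given in the sources used here. The deposited table holds a signal whose unit its header does not state. Its low values rise in equal increments: among genes alone at their locus, 97.1 to 98.9% of a library's values (60.0 to 63.2% over all entries) lay within 0.05 of a whole number of increments. The deposited signal was therefore read as estimated fragments multiplied by a factor per library (0.637 to 1.36 per fragment), set within each line and IFN state. Here those factors were removed, and median-of-ratios factors were computed from 14209 genes across the 24 libraries. A final row without values and 25 entries under 10 repeated symbols were left out, and 3511 entries have merged names. Fragments at shared loci are not whole, and no count model was run.

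Log2(scaled fragments + 1) was fitted in limma 3.58.1 (R 4.3.3) as 8 group means with a variance trend (16 residual and 8.05 prior degrees of freedom). A minimum of 10 scaled fragments, reached in 3 or more libraries, left 20162 entries. Tests were two-sided, with Benjamini-Hochberg adjustment within each of 12 comparisons and a threshold of 0.05, and the script was tested on simulated data. All 10 members are named, and of each list up to 4 called genes with the largest change that reach 50 scaled fragments in a group. Values of 1 list gene are not reported here. The members and the lists were chosen with earlier results of these data known. Alternatives were a pseudocount of 5, no filter, the deposited scale, TMM scaling, a fit of only the groups compared, a replicate block, leaving out each library, and summing entries at a shared locus. Leaving out the 4 libraries of low mitochondrial share was added after seeing the data.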

Additional observations from a re-analysis of the deposited data

Results flagged for a closer look

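The response to R5020 with water differed between T47D-co and T47D-Y for 7 of the 10 genes, in a limma test of the line by R5020 interaction, beside 44.6% of all entries called. The differences in log2 fold change, T47D-co minus T47D-Y, were 2.68 ± 0.070 for BCL2L11, 1.01 ± 0.040 for BCL2L1, 1.12 ± 0.32 for PMAIP1 and 0.25 ± 0.042 for MCL1. They were -2.24 ± 0.23 for BCL2, -0.54 ± 0.18 for BBC3 and -0.20 ± 0.065 for the merged BCL2L2 entry. The interaction uses the same libraries as the R5020 comparisons in the 2 lines. With 1 library left out, the BBC3 call was lost in 4 of 12 fits: without replicate 2 of T47D-Y with EtOH (-0.48) or R5020 (-0.49), replicate 2 of T47D-co with EtOH (-0.46) or replicate 1 of T47D-co with R5020 (-0.48). Without the 4 libraries of low mitochondrial share, the calls of PMAIP1 (1.03), BBC3 (-0.55) and BCL2L2 (-0.19) were lost. With 1 library left out, the BCL2L2 call was lost in 1 of 12 fits, without replicate 3 of T47D-Y with EtOH (-0.14).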

How the results depend on the processing

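For the 120 changes (10 genes in 12 comparisons), a pseudocount of 5 and no filter on low values left 120 of 120 with the same call and direction. TMM scaling ended 1 call and added 2, a fit of only the groups compared ended 5 and added 1, and the replicate block ended 1: BAK1 with R5020 in T47D-co with water, whose value stayed 0.20. The replicate numbers did not pair the samples (correlations of same-numbered deviations from -0.332 to 0.263, 4 of 27 pairs over 0.1, 7 best with their own number), and the block changed no other call. Changes of sign between values called in neither fit (96 over all alternatives) count as the same here.

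The number of members called with IFN moved most. In T47D-co with EtOH it was 1, against 3 on the deposited scale, 0 with only the groups compared, 0 without the libraries of low mitochondrial share and 0 to 1 with 1 library left out. In T47D-co with R5020 it was 1, against 7 on the deposited scale, 0 with TMM scaling, 0 with only the groups compared and 0 to 0 with 1 library left out. In T47D-Y with EtOH it was 1, against 9 on the deposited scale, 0 with only the groups compared, 0 without the libraries of low mitochondrial share and 0 to 2 with 1 left out. In T47D-Y with R5020 it was 1, against 8 on the deposited scale and 0 to 1 with 1 left out. The line by R5020 count fell from 7 to 4 without the libraries of low mitochondrial share, where fewer samples remain, and the line by IFN count rose from 0 to 7 on the deposited scale.

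The deposited scale turned 21 values, since it shifts the median of all entries by -0.18, -0.188, -0.477 and -0.483 in the 4 IFN comparisons, -0.234 between the untreated lines and 0.297 in the line by IFN interaction, and by at most 0.023 in the R5020 comparisons, where no value turned. With IFN in T47D-co it gave MCL1 -0.089 with EtOH, and BCL2L1 -0.16 and MCL1 -0.095 with R5020. In T47D-Y it gave BCL2 -0.42, BCL2L11 -0.34, BCL2L2 -0.41, MCL1 -0.37, BAK1 -0.45 and BBC3 -0.37 with EtOH, and BCL2L1 -0.45, BCL2L11 -0.33, BCL2L2 -0.46, MCL1 -0.35, BAX -0.46, BAK1 -0.41 and BID -0.47 with R5020. Between the untreated lines it gave BCL2L2 -0.063, MCL1 -0.18 and BAK1 -0.026, and in the line by IFN interaction MCL1 0.28 and BAK1 0.28.

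Counts over all entries moved by over 1.5 times on the deposited scale for IFN (202 to 8433 and 2269 to 7201 in T47D-co with EtOH and R5020, 895 to 14730 and 961 to 14791 in T47D-Y) and line by IFN (76 to 9531). With only the groups compared, R5020 in T47D-Y with IFN went from 60 to 23. Without the libraries of low mitochondrial share, the counts fell from 44 to 16 (R5020 in T47D-Y with water), 202 to 128, 895 to 514 and 961 to 325 (IFN in T47D-co with EtOH and in T47D-Y with EtOH and R5020) and 203 to 63 (R5020 by IFN). Leaving out 1 library also moved some of these counts by over 1.5 times. IFN in T47D-co with R5020 (2269) gave 1153 to 1410 without replicate 1 or 2 of either group, and IFN in T47D-Y with R5020 (961) gave 526 to 630 without replicate 2 or 3 of its water group or replicate 1 or 2 of its IFN group. IFN in T47D-Y with EtOH (895) gave 574 without water replicate 2, and R5020 in T47D-Y with IFN (60) gave 29 without R5020 replicate 1. R5020 by IFN (203) gave 75 to 135 without replicate 1 or 2 of any of its 4 groups, and 416 and 320 without replicate 3 of T47D-co with IFN and EtOH or R5020. The shares of all entries called in these comparisons rest on these counts. Depth limits BCL2 in T47D-co given R5020 and PMAIP1 throughout.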

Other observations

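HRK, a BH3-only gene of the list of other BCL2 homology genes, did not reach the level at which list genes are named and was picked out after its values were seen. In T47D-co with water it measured 3.85, 6.42 and 6.91 scaled fragments under EtOH and 39.6, 50.4 and 40.3 under R5020, and with IFN 5.51, 6.36 and 4.74 under EtOH and 27.8, 47.04 and 43.3 under R5020. The log2 changes were 2.75 ± 0.41 with water and 2.60 ± 0.41 with IFN (limma adjusted p = 2.69e-06 and 5.93e-06). The EtOH values rest on few fragments, so the size of the change is uncertain. In T47D-Y it changed with R5020 by 0.13 ± 0.41 with water and 0.65 ± 0.41 with IFN (limma adjusted p = 1 and 0.958). BIK, a further BH3-only gene of that list, averaged 158 ± 22.6 in untreated T47D-co and 329.8 ± 18.3 in untreated T47D-Y, a difference of -1.07 ± 0.12 (limma adjusted p = 3.38e-08).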
